A study of Homo sapiens with 32 samples.

Results

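GALNT18 and 9 further genes of the polypeptide GalNAc-transferase family were followed through 7 comparisons of MYC constructs in TET21 cells. They are the rows of the authors' table of all genes with the symbols GALNT1, GALNT2, GALNT3, GALNT5, GALNT6, GALNT7, GALNT10, GALNT12, GALNT14 and GALNT18, 10 of 58317 genes. GALNT18 was chosen by its large measured fold in full-length MYC against empty vector, and the other genes were selected as its relatives with these results known. The members' values in that comparison are therefore a description and not a test. The full-length MYC libraries are also the reference of every mutant comparison, so those folds are not free of the choice either.

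Polypeptide GalNAc-transferases start mucin-type O-glycosylation. In the Golgi they move a GalNAc residue from UDP-GalNAc to a serine or threonine of a protein, and other enzymes then extend and cap the sugar. The isoforms share this reaction but differ in the protein sequences they prefer, and some act mainly on proteins that already carry GalNAc. GALNT18 belongs to a divergent subgroup of the family, together with GALNT8, GALNT9 and GALNT17, which has little activity on standard peptide substrates.

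TET21 cells come from the human neuroblastoma line SH-EP and carry a MYCN transgene that is silenced by doxycycline. Each of 8 groups has 4 RNA libraries, 32 in all. One group holds an empty vector (EV) and one full-length MYC (WT). The other 6 hold MYC with a deletion, labelled d0x (here ΔMB0), d1 (ΔMBI), d2 (ΔMBII), d3a (ΔMBIIIa), d3b (ΔMBIIIb) and d4 (ΔMBIV). What each deletion removes is not in the labels, and the names used here, after the conserved MYC boxes, were inferred from those labels and from what is known of MYC. The growth protocol is the same text on all 32 samples and gives doxycycline at 1 µg/mL for 7 days. All groups are of 1 line and keep its own MYC gene. Replicates carry the numbers 4 to 7, and nothing in the labels says that they were cultured separately, so the spread between them may be technical.

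The values used are comparisons computed by the authors, 1 of WT with EV and 6 of a mutant with WT. For every gene they give a log2 posterior fold and the PPDE, the posterior probability that its expression differs. A gene is called, and said to have risen or fallen, at a PPDE of at least 0.95, which the file headers equate with a false discovery rate below 0.05. No library's own value or depth was used here, so folds carry no SD, and levels cannot be compared between genes. The WT libraries enter all 7 comparisons. The cell type could be checked only by which markers have a value, which needs few reads. All 5 mesenchymal neuroblastoma markers, 1 of 3 adrenergic, 4 of 4 epithelial and 2 of 3 immune markers had one in every comparison. In the authors' deposited table MYC had a fold of 0.98 over EV in WT with a PPDE of 0.348 and was not called, a value in which transgene and endogenous MYC cannot be told apart. The deposited log2 folds of MYC against WT were 0.57 in ΔMB0, 0.46 in ΔMBI, 0.68 in ΔMBII and 0.67 in ΔMBIIIa. They were 0.57 in ΔMBIV and -0.09 in ΔMBIIIb, and MYC was called in no mutant.

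With full-length MYC, 1 member rose and 5 fell. In the authors' deposited table GALNT18 rose by 4.58 on the log2 scale, 23.9 times EV, while GALNT3 (-4.62), GALNT6 (-1.49), GALNT5 (-1.12), GALNT10 (-0.87) and GALNT2 (-0.63) fell. GALNT1, GALNT7 and GALNT12 stood at -0.35, -0.30 and -0.11 in the same deposited table and were not called. The 6 calls among 10 members stand beside 4.91% of all 38218 genes with a value in WT against EV, and beside 1.97% risen and 2.94% fallen. Counting GALNT14, whose fold 719 genes have exactly, the median log2 fold of the 10 was -0.75, against -0.04 over all genes. The members were chosen with these values known, so nothing is read from that share. The table holds 10 further family members. None of them was called in any comparison of this table, and the highest PPDE among them was 0.587. Over the whole family, 6 of 19 genes with a value were called in WT against EV, with a median log2 fold of -0.11. That median also takes in GALNT8, GALNT9 and GALNTL5, whose folds recur exactly in other genes.

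**Figure D1:**
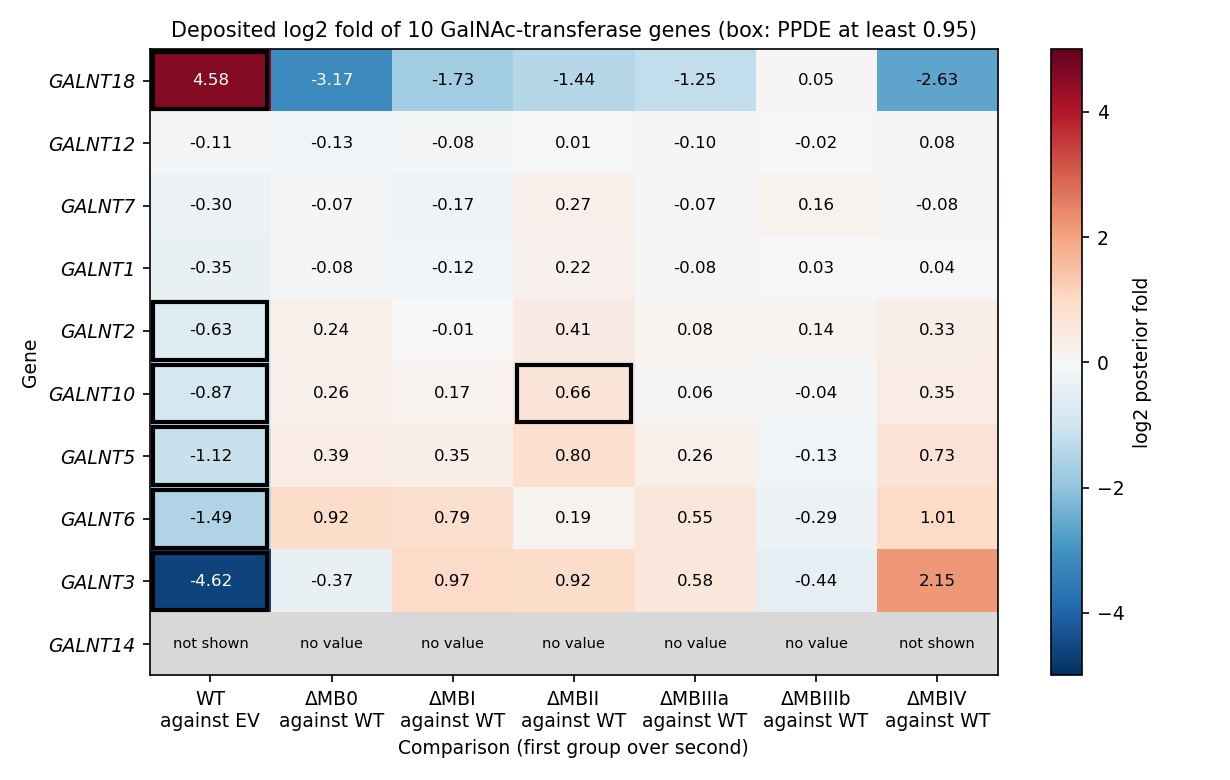
Deposited log2 fold of the 10 members (rows) in the 7 comparisons (columns), first group over second, with a black box where the PPDE is at least 0.95 and no fold for GALNT14, whose values are missing or shared with many genes. GALNT18 is the 1 member above 0 in WT against EV, 5 members are boxed below 0 there, and 1 box stands in a mutant column, GALNT10 in ΔMBII.

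GALNT18 had a fold that only 1 other gene exceeded upwards in WT against EV, since 2 genes stood at 4.58 or above and both were called. Its PPDE there was 0.997 in the authors' deposited table. Against WT, the deposited log2 folds of GALNT18 were -3.17 in ΔMB0, -2.63 in ΔMBIV, -1.73 in ΔMBI, -1.44 in ΔMBII, -1.25 in ΔMBIIIa and 0.05 in ΔMBIIIb. It therefore stood below WT in 5 mutants, by 8.98 times in ΔMB0 and by 6.2 times in ΔMBIV, and at the WT value in ΔMBIIIb. The WT libraries behind the choice of GALNT18 are the reference of all 6 folds, so nothing is read from falls below WT. None of the 6 differences was called. The deposited PPDE was 0.837 in ΔMB0, 0.407 in ΔMBIV, 0.0396 in ΔMBII, 0.00885 in ΔMBI, 0.001 in ΔMBIIIa and 0.00051 in ΔMBIIIb. A deep fold without a call was common in these tables. In ΔMB0 27 genes stood at the GALNT18 fold or below and 2 of them were called, and in ΔMBIV 172 did, with 2 called. The order of the mutants is thus an order of folds, and no 2 mutants in it can be told apart by any error given here.

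Adding the WT against EV fold to each mutant fold sets GALNT18 on one scale over empty vector. The sums of the authors' deposited folds were 1.41 in ΔMB0, 1.95 in ΔMBIV, 2.85 in ΔMBI, 3.14 in ΔMBII, 3.33 in ΔMBIIIa and 4.63 in ΔMBIIIb, beside 4.58 in WT. The lowest, ΔMB0, came to 2.67 times EV. Each sum holds the WT against EV fold by which GALNT18 was chosen, so nothing is read from all 6 being above 0. No mutant was compared with EV in the deposited tables, so these sums have no PPDE.

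**Figure D2:**
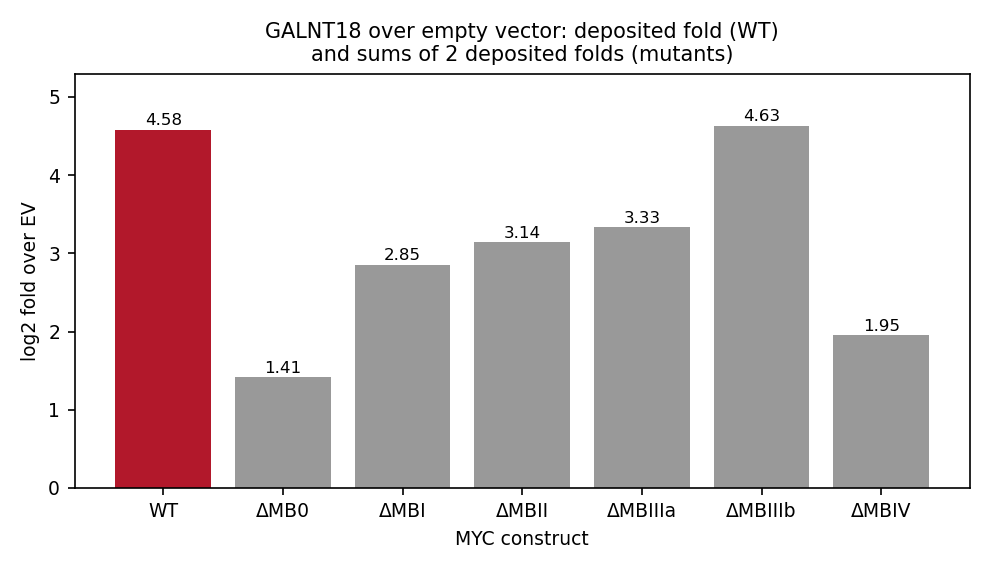
GALNT18 over empty vector on the log2 scale (y axis) for WT and the 6 mutants (x axis). The WT bar is the deposited fold and each mutant bar is the sum of its deposited fold against WT and the WT fold. ΔMB0 at 1.41 and ΔMBIV at 1.95 are lowest and ΔMBIIIb at 4.63 is level with WT, but no mutant was called against WT and no error bars can be given.

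By Euclidean distance over the 7 folds, among 1770 other genes called in WT against EV with a value throughout, 5 genes had patterns nearest to GALNT18. They were the chemokine CCL5 (distance 1.97), HSD11B1 (2.72), which regenerates cortisol, the sarcomeric actinin ACTN2 (3.65), RGS16 (3.68), a GTPase activator for G proteins, and PLCXD3 (3.72). CCL5 had deposited log2 folds of 4.52 in WT against EV, -3.04 in ΔMB0, -3.26 in ΔMBIV, -0.81 in ΔMBI, -2.94 in ΔMBII, -1.04 in ΔMBIIIa and 0.62 in ΔMBIIIb, and like GALNT18 it was called in none of the mutants. CCL5 thus stood lower than GALNT18 in ΔMBII. HSD11B1 was called in no mutant either. ACTN2 and PLCXD3 were called in ΔMB0 and ΔMBII, and RGS16 in ΔMB0, ΔMBI and ΔMBII. In ΔMBIV the deposited folds were -0.30 for ACTN2, -0.01 for PLCXD3 and -0.54 for RGS16, where GALNT18 was at -2.63. A distance favours genes with a large WT fold. With Pearson correlation over the same 7 points, which ignores size, the nearest were WASF3 (r = 0.996), MCOLN2 (r = 0.985), AADAT (r = 0.985), RFESD (r = 0.981) and PRMT6 (r = 0.979), and none of the first 5 was among them. The 7 points share the WT libraries and include the fold by which GALNT18 was chosen, so a high r is no test of likeness.

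The genes around GALNT18 were mostly uncalled, as were most genes in every comparison. In RefSeq gene order its nearest protein-coding neighbours are ZBED5 and EIF4G2 on one side and USP47 and DKK3 on the other, and CSNK2A3 lies inside it. In WT against EV the authors' deposited table put EIF4G2 at 0.05, ZBED5 at 0.12, USP47 at -0.39 and CSNK2A3 at 0.22, and called none of them. CSNK2A3 is a near copy of CSNK2A1, so reads of the pair may be shared. DKK3 was the 1 called gene of these 5, beside 4.91% of all genes called in WT against EV. This secreted glycoprotein of the Dickkopf family fell by 2.00 on the log2 scale between EV and WT in the authors' deposited table. It rose in ΔMBII (1.47), ΔMBIV (0.80) and ΔMB0 (0.75), where 1.45%, 1.11% and 0.559% of all genes were called. Whether counting used strand is not given in the sources used here, so reads of GALNT18 cannot be told apart from those of GALNT18-AS1, an antisense RNA that RefSeq places inside it.

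GALNT3 fell furthest. It encodes the enzyme known for protecting the phosphate hormone FGF23 from cleavage. In WT against EV it was 24.6 times lower (-4.62, PPDE 0.999), and 35 genes stood at that deposited fold or below. Against WT its deposited log2 fold was 2.15 in ΔMBIV, 0.97 in ΔMBI, 0.92 in ΔMBII and 0.58 in ΔMBIIIa, and -0.37 in ΔMB0 and -0.44 in ΔMBIIIb. None of these was called, and the highest PPDE among them was 0.198, in ΔMBIV. In ΔMB0 and ΔMBIIIb the PPDE was listed at 0. In ΔMBIV 348 genes stood at the GALNT3 fold or above, of which 5 were called. GALNT3 was at 4.44 times WT there, the largest upward fold of any member with reads in WT in a mutant.

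GALNT6, the closest relative of GALNT3 in the family, fell by 1.49 on the log2 scale in the authors' deposited table, with a PPDE of 0.977, the lowest among the called members. Against WT it stood at 1.01 in ΔMBIV, 0.92 in ΔMB0, 0.79 in ΔMBI, 0.55 in ΔMBIIIa, 0.19 in ΔMBII and -0.29 in ΔMBIIIb in the deposited table, and was not called. In ΔMB0 the pair differed in sign, with GALNT6 above WT and GALNT3 below it, and neither was called. The PPDE of GALNT3 was listed at 0 there, so nothing is read from that sign. The difference between them was not tested.

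GALNT10 was the 1 member called in a mutant. It prefers proteins that already carry a GalNAc. In the authors' deposited table it fell by 0.87 in WT against EV and rose by 0.66 in ΔMBII, 1.58 times WT, both with a PPDE of 1.0. In the other mutants its deposited log2 fold was 0.35 in ΔMBIV, 0.26 in ΔMB0, 0.17 in ΔMBI, 0.06 in ΔMBIIIa and -0.04 in ΔMBIIIb, with a PPDE of 0.606 in ΔMB0 and 0.532 in ΔMBIV. The 1 call of 9 members with a value in ΔMBII stands beside 1.45% of all genes called there, and 0.695% called as risen. This call is not kept in the authors' separate table of genes with a MYC binding site, where GALNT10 had the same fold of 0.66 and a PPDE of 0.936, so that 0 of 5 members listed there were called in ΔMBII beside 4.87% of its genes.

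GALNT2, a broadly expressed transferase with a wide substrate range, fell by 0.63 on the log2 scale between EV and WT in the authors' deposited table (PPDE 0.989). Against WT it stood at 0.41 in ΔMBII, 0.33 in ΔMBIV, 0.24 in ΔMB0, 0.14 in ΔMBIIIb, 0.08 in ΔMBIIIa and -0.01 in ΔMBI in the deposited table. GALNT5 fell by 1.12 (PPDE 0.989) and stood at 0.80 in ΔMBII, 0.73 in ΔMBIV, 0.39 in ΔMB0, 0.35 in ΔMBI, 0.26 in ΔMBIIIa and -0.13 in ΔMBIIIb in the authors' deposited table. Neither gene was called against WT in any mutant.

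The remaining members moved little or had almost no reads. GALNT1, one of the most widely expressed isoforms, lay between -0.12 and 0.22 in the 6 mutants in the authors' deposited table, GALNT7, which like GALNT10 acts on already glycosylated proteins, between -0.17 and 0.27, and GALNT12 between -0.13 and 0.08. All 3 had their highest mutant fold in ΔMBII or ΔMBIV. None of their mutant folds was called, so nothing is read from that. GALNT14 had no value in 5 of 7 comparisons, which the file headers give to genes whose read counts were 0. By that rule it had reads in EV and ΔMBIV and none in WT or the other 5 mutants. Its fold in ΔMBIV was shared exactly by 252 genes and its fold in WT against EV by 719, so these folds are not read as its own and are not given. Why so many genes share a fold was not tested.

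**Figure D3:**
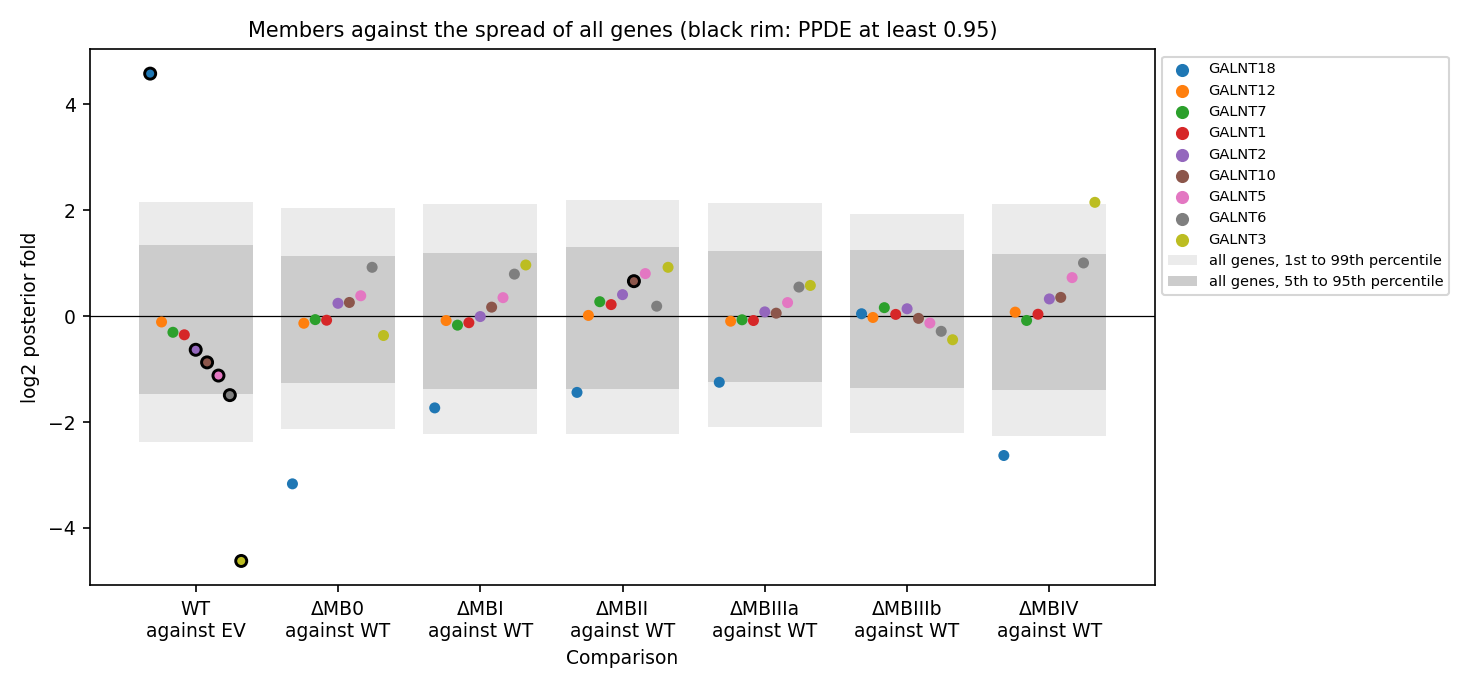
Log2 folds of 9 members (points) in each comparison (x axis), over bars that span the 5th to 95th and the 1st to 99th percentile of all genes with a value, with a black rim on called members. In WT against EV GALNT18 and GALNT3 lie outside the wider bar, while GALNT6 at -1.49, GALNT5, GALNT10 and GALNT2 lie inside it, and in the mutants the points outside are GALNT18 in ΔMB0 and ΔMBIV and GALNT3 in ΔMBIV, none of them called.

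By mutant, the members set beside all genes read as follows. All 9 members other than GALNT18, GALNT14 among them, stood below 0 in WT against EV, and the members were chosen with that known. WT is the reference of each mutant, so nothing is read from the signs and medians given here. In ΔMBII 8 of 9 members with a value were above 0, with a median of 0.27 against 0.04 over all genes. In ΔMBIV 8 of 10, GALNT14 among them, were above 0, with a median of 0.34 against -0.05, and 0 were called beside 1.11% of all genes. In ΔMB0 4 of 9 were above 0 with a median of -0.07, and 0 were called beside 0.559%. In ΔMBI, ΔMBIIIa and ΔMBIIIb the medians were -0.01, 0.06 and -0.02, and 0 members were called beside 0.119%, 0.0419% and 0.0955% of all genes. The highest PPDE of any member was 0.0592 in ΔMBI, 0.001 in ΔMBIIIa and 0.00073 in ΔMBIIIb, the 3 mutants with the fewest calls over all genes.

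MYC binding was mapped in 1 experiment, and the authors' second table lists the 9368 genes they gave a binding site. The first table holds 58317 genes. In WT against EV 38218 genes of the first and 9181 of the second had a value. GALNT2, GALNT5, GALNT6, GALNT7 and GALNT10 are in it, whereas GALNT1, GALNT3, GALNT12, GALNT14 and GALNT18 are not. The members with the largest rise and the largest fall are thus both outside the list. Of the 10 other family members 7 are in it, among them GALNT11 and GALNT13. In the second table's own fit the folds of WT against EV were -1.40 for GALNT6, -1.10 for GALNT5, -0.82 for GALNT10, -0.60 for GALNT2 and -0.29 for GALNT7, and the first 4 were called there too, beside 15.8% of that table's genes called and 7.32% called as fallen. GALNT2 in ΔMBIV came close to a call in the second table, at 0.40 with a PPDE of 0.948, against 0.33 with 0.396 in the first.

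**Figure D4:**
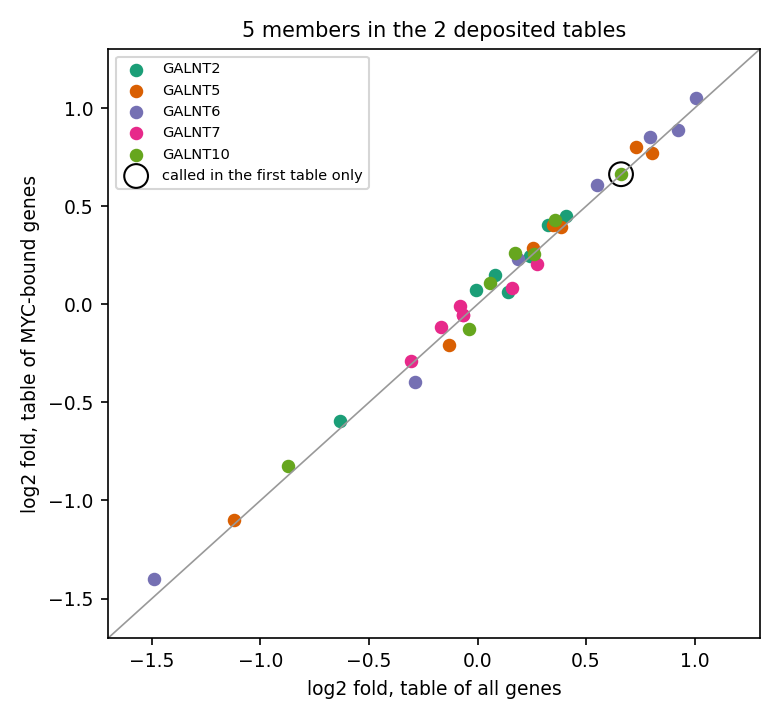
Log2 folds of the 5 members listed as MYC-bound, in the authors' table of all genes (x axis) and in their table of MYC-bound genes (y axis), 7 comparisons per gene, with the line of equality. Points lie near the line, and the ringed point is GALNT10 in ΔMBII at 0.66 in both, called in the first table only.

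Promoter windows from RefSeq (GRCh38.p14), 250 bases before to 50 after a start, were found for 7 members in 10 windows, but not for GALNT5, GALNT6 and GALNT18. The E-box that MYC and MAX prefer, CACGTG, was in none of the 10 windows, against 7.26% of all 35116 windows. Its variant CACGAG was in GALNT10 and in 1 window of GALNT14 (6.78% of all), CACGCG in 1 window of GALNT1 (11.4% of all), and the general E-box CANNTG, which includes CACGTG, in 6 of 10 windows (68.7% of all). Both strands were searched. The GC content of the 10 windows ran from 45.0% to 86.0%, against a median of 58.7%. Shown are the 2 windows of called, MYC-listed members, up to the start, and a short stretch of GALNT3, the member that fell furthest, from the 50 bases after its start. Capitals mark a match to any of these motifs, CTCGTG being CACGAG on the other strand, and the GALNT2 stretch has none.
GALNT10 (chr5:154190483-154190732, plus strand): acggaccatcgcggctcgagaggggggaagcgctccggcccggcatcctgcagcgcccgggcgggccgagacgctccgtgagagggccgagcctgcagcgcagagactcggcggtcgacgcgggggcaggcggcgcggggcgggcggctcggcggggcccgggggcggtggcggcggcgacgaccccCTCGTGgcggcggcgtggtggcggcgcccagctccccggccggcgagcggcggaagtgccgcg
GALNT2 (chr1:230066988-230067237, plus strand): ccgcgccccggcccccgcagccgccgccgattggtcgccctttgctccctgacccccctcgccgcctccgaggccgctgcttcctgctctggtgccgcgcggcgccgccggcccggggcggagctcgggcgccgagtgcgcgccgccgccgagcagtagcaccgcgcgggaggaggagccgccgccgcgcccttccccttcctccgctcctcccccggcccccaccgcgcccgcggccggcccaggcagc
GALNT3 (chr2:165794217-165794246, minus strand): gctCACCTGggagactcCAAGTGgaagccg
In these stretches GALNT10 holds 1 match to CACGAG, and GALNT3 shows the E-box forms CACCTG and CAAGTG. The whole GALNT3 window holds 3 matches to CANNTG, of which 2 read CACCTG. A match is a string of letters and not a site, and the binding experiment gave no positions here.

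Genes of other steps were counted in 4 lists, which were chosen with earlier results known. Over the 4 lists 9 of 70 genes with a value were called in WT against EV, 3 risen and 6 fallen, beside 4.91% of all genes called, 1.97% risen and 2.94% fallen. The median log2 fold of the 70 was -0.22, against -0.04 over all genes. In ΔMBII 3 of 69 were called, beside 1.45% of all genes. Of 17 genes with a value that extend or cap the sugar, 2 rose in WT against EV, where 1.97% of all genes did, and none fell. These were ST6GALNAC2, a sialyltransferase that caps GalNAc, at 0.69, and the sulfotransferase CHST4 at 0.69 in the authors' deposited table. C1GALT1, which builds the core structure on the first GalNAc, and its chaperone C1GALT1C1 stood at -0.24 and -0.32 in the deposited table and were not called. Of 12 genes that supply the donor UDP-GalNAc and its relative UDP-GlcNAc, only NAGK, a kinase of salvaged GlcNAc, was called, at -0.70 in the authors' deposited table, where 2.94% of all genes fell. GFPT1, the entry enzyme of that route, stood at -0.24 in the deposited table and was not called.

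Among 26 proteins with a value that carry mucin-type O-glycans, 3 fell in WT against EV, beside 2.94% of all genes. They were the lipoprotein receptors VLDLR (-1.32) and LRP1 (-1.50) and the complement inhibitor CD59 (-1.07) in the authors' deposited table. In ΔMBII 3 of 25 carriers with a value were called, 2 of them risen, beside 1.45% of all genes called and 0.695% risen. The risen were PDPN (3.27), a mucin-like membrane protein, and VLDLR (1.27), and the sialomucin PODXL fell (-0.27), in the authors' deposited table. LRP8 was the 1 of 26 carriers called in ΔMB0 (-0.20) and in ΔMBI (-0.19) in the authors' deposited table, beside 0.559% and 0.119% of all genes, but neither call was kept in their table of MYC-bound genes. There its fold stayed at -0.20 in ΔMB0 with a PPDE of 0.27, and was smaller in ΔMBI, at -0.10 with a PPDE of 0.0005. Of 15 starters of other O-linked sugars 3 were called in WT against EV, beside 4.91% of all genes. POFUT2 (-0.81), which adds fucose, and TMTC1 (-0.52) fell and TMTC4 (0.50) rose with WT in the authors' deposited table, the latter pair adding O-mannose. In ΔMBII TMTC4 was at -0.32 and uncalled, with a PPDE of 0.0549, but was called in the authors' deposited table of MYC-bound genes, at -0.35 with a PPDE of 1.0. OGT, which adds GlcNAc to nuclear and cytosolic proteins, stood at 0.06 in the deposited table and was not called.

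The other transferases of the family had no call in the table of all genes. In the table of MYC-bound genes GALNT11 was called in ΔMBII, at -0.23 with a PPDE of 0.957. In WT against EV their deposited folds reached from -0.48 for GALNT4 to 1.77 for GALNT8. GALNT13 stood at 0.09, GALNT16 at 0.30, GALNT15 at 0.58, GALNTL5 at 1.55 and GALNT9 at -0.11 in the authors' deposited table. The folds of GALNT8 and GALNT9 are each shared exactly by 27 genes and that of GALNTL5 by 56, and the 3 genes have a PPDE listed at 0 there. Like those of GALNT14, these folds are not read as the genes' own. GALNT4 and GALNT15 also had a PPDE listed at 0 in WT against EV, though no other gene shared their folds. GALNT8 and GALNT9, of the same subgroup as GALNT18, had a PPDE listed at 0 in all 7 comparisons of the authors' deposited table, and WBSCR17, an earlier symbol of GALNT17, had a value in ΔMBII alone. GALNTL6 stood at 0.98 with a PPDE of 0.578 in WT against EV, and GALNT11, which acts on lipoprotein receptors, at -0.15 with a PPDE of 0.587 in ΔMBIV in the authors' deposited table. GALNT4 is overlapped by the read-through gene POC1B-GALNT4, so reads of the pair may be shared.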

How the data were processed

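Per the file headers, the authors deposited 2 tables of results, the first of all 58317 genes and the second of the 9368 genes they gave a MYC binding site. Each holds, for 7 comparisons, a log2 posterior fold and a PPDE, and no value where the read counts were 0. The submitters' processing notes name GRCh37, DESeq, R 3.3.1, edgeR 3.16.5 and STAR 2.5.2a without a role. The scaling of libraries is not given in the sources used here. No model was refitted. Calls were counted at a PPDE of at least 0.95, beside the share of all genes called. Members and gene lists were chosen with earlier results of these data known. Named were all members and other family genes, up to 4 called genes per list and comparison, the 5 genes nearest to GALNT18, its neighbours and MYC, and further uncalled pathway genes, picked after their values were seen. Promoters and gene order came from RefSeq on GRCh38.p14, and no coordinate was set beside values on GRCh37. Counting, ranking and motif search were tested on simulated data. Python 3.11.15 and pandas 2.3.3 were used. Alternatives tried were the second table, a minimum absolute log2 fold of 1, a PPDE of 0.90 or 0.99, folds centred on the median gene, and Pearson correlation for likeness. Depth per library is unknown.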

Additional observations from a re-analysis of the deposited data

How the results depend on the processing

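Of 65 member folds, 61 kept their sign when centred on the median gene. The 4 that changed sign were uncalled and near 0, to -0.026 for GALNT1 and -0.014 for GALNT18 in ΔMBIIIb, 0.059 for GALNT2 in ΔMBI and -0.022 for GALNT12 in ΔMBII. In the table of MYC-bound genes 33 of 35 folds kept sign and call, GALNT2 in ΔMBI changed sign to 0.074, uncalled, and GALNT10 in ΔMBII had a PPDE of 0.936. Members called in WT against EV numbered 3 at a PPDE of 0.99 (GALNT3, GALNT10 and GALNT18). In ΔMBII 0 members were called with an absolute log2 fold of at least 1, or in the second table. Pathway genes outside the members called with that fold were 3 of 79 in WT against EV, 0 of 79 in ΔMB0 and 0 of 80 in ΔMBI. In ΔMBI 0 were called at a PPDE of 0.99, and the second table had 0 in ΔMB0 and 0 in ΔMBI. In ΔMBII it had 2 of 51 with a value, GALNT11 and TMTC4, beside 4.87% of its genes called. Neither was called in the first. With both folds centred, an alternative chosen after seeing the data, the GALNT18 sum in ΔMBI was 2.96. A fold minimum or a stricter PPDE can only lower a count, and the second table holds fewer genes. Otherwise the cause was not tested. No paired analysis was possible because the tables hold no values per library, and for the same reason no replicate could be left out. GALNT18 is not in the second table, so its sums could not be recomputed there.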
